A study of Homo sapiens with 4 samples.

Results

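The replication-dependent histone genes were taken as the protein-coding genes of hg38 whose symbols start with H1-1 to H1-6, or with H2AC, H2BC, H3C or H4C followed by a number. This rule used no measured value. It gave 70 of 20050 protein-coding genes: 6 of the H1 family, 17 H2A, 19 H2B, 13 H3 and 15 H4. Chromosome 6 holds 55 of them, chromosome 1 holds 13, and H4C16 and H2BC12L lie alone on chromosomes 12 and 21.

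These genes supply the bulk of the histones that package newly made DNA. They are transcribed in S phase from factories called histone locus bodies, which the coactivator NPAT organises. Their mRNAs usually lack introns and a poly(A) tail and end in a stem-loop that the protein SLBP binds. The mark studied here, acetylation of lysine 27 of histone H3 (H3K27ac), sits on the product of the H3 genes themselves and is typical of active promoters and enhancers.

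The cells were K562, an established human line from chronic myeloid leukaemia in blast crisis. Daunorubicin, an anthracycline that inserts between DNA bases and traps topoisomerase II on DNA, was given at 1 uM for 18 h, and untreated cells were kept without it. Each condition had 1 H3K27ac library and 1 input library sequenced without an antibody, and no difference given here could be checked in replicates. The authors' lists held 65118 peaks with daunorubicin and 38626 without it, covering 57.0 Mb and 36.0 Mb. Of 9 genes that mark K562, 8 had a peak in both libraries and HBG2 only with daunorubicin. CDKN2A, CDKN2B and MTAP, which K562 lacks, had none in either. Of 10 markers of T cells, B cells, hepatocytes and epithelium, 6 also had a peak in both libraries, so peaks alone did not separate these cell types.

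Promoter sequences from RefSeq (GRCh38.p14, 5′ to 3′) show what the families share and where peaks stopped. The letters searched, on both strands, were TATAAA (the TATA box), CCAAT (the CCAAT box), ATTTGCAT (the octamer bound by POU2F1), AAACACA (a box of H1 promoters) and GGTCCG (an element of H4 promoters bound by HINFP). None of these contains another. Matches are in capitals. The first sequence is the whole stretch between the starts of the divergent pair H2BC8 and H2AC8 (chr6:26216689-26216920, strand of H2AC8), because it lay between peaks in both libraries. The others are the 200 bases before a start, as pairs of marked and unmarked genes: H1-4 (chr6:26156129-26156328, plus strand) and H1-1 (chr6:26017788-26017987, minus), H4C8 (chr6:26285535-26285734, minus) and H4C7 (chr6:26246997-26247196, minus). H2BC6 (chr6:26183561-26183760, plus) is an unmarked gene with the octamer.
H2BC8 to H2AC8: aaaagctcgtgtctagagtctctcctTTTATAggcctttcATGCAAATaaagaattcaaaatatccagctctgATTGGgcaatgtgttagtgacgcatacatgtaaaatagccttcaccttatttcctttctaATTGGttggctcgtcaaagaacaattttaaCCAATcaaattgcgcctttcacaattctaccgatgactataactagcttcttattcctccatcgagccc
H1-4, marked: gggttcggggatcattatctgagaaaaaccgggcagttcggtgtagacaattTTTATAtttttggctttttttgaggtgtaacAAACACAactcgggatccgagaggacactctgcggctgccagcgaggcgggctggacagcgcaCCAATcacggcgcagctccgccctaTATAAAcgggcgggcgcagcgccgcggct
H1-1, unmarked: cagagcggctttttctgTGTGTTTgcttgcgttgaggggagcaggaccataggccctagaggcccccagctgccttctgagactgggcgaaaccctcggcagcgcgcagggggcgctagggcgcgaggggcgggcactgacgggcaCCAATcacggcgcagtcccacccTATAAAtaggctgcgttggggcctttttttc
H4C8, marked: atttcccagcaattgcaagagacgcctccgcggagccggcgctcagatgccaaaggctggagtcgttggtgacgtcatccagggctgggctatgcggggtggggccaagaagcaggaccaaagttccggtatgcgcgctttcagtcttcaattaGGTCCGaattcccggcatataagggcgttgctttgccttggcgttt
H4C7, unmarked: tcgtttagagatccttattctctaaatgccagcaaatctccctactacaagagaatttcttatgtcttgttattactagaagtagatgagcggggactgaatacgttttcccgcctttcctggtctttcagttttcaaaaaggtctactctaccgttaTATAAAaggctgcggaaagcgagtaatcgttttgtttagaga
H2BC6, unmarked: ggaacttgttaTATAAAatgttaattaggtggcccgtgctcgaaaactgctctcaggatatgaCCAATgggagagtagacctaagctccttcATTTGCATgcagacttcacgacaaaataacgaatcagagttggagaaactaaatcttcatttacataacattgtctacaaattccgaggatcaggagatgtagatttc

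The promoter table matched 64 of the 70 genes, with 65 distinct starts. H2BC12L, H4C1, H4C3, H2AC12, H3C11 and H3C12 were not matched. In the 250 bases before the start, the H1 box was found at 6 of 6 H1 starts and at 3.82% of all 21376 protein-coding starts. GGTCCG was found at 12 of 13 H4 starts, against 11.7% of all starts, and the H4 start without it was that of H4C7. The octamer was found at 14 of 18 H2B starts and 11 of 16 H2A starts, against 1.60% of all. These counts are not independent. Divergent H2A and H2B pairs have 193 to 247 bases between their starts, so a motif there counts at both genes. CCAAT was found at every H1, H2A, H2B and H3 start but at 3 of 13 H4 starts, against 32.6% of all. TATAAA was found at 43 of 65 histone starts (66.2%), against 9.15% of all. By marking, the octamer stood at 40.9% of 44 marked and 33.3% of 21 unmarked histone starts, GGTCCG at 22.7% and 23.8%, and TATAAA at 68.2% and 61.9%. These shares pool the families, and no H1, H3 or H4 start had the octamer. Within H2A and H2B the direction was the opposite: every unmarked start had the octamer, and some marked starts did not.

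A peak lay at the same histone genes in both libraries. Of the 70 genes, 48 (68.6%) were marked in both, 22 (31.4%) in neither, and none in only 1 library. Among all protein-coding genes the shares were 66.0% in both, 26.9% in neither, 6.42% only with daunorubicin and 0.648% only without it. The histone genes are short, with a median span of 494 bp. Among 3145 other protein-coding genes of at most 5 kb the shares were 38.2%, 56.6%, 4.32% and 0.890%, in the same order. Within 1 kb of a start, 44 of 65 histone starts were marked in both libraries, against 56.3% of all starts. No input library had a peak at a histone gene. By family, 4 of 6 H1, 15 of 17 H2A, 13 of 19 H2B, 6 of 13 H3 and 10 of 15 H4 genes were marked. The marks belong to windows rather than to genes alone, since the 70 windows merged into 40 separate stretches and neighbouring genes shared peaks.

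**Figure D1:**
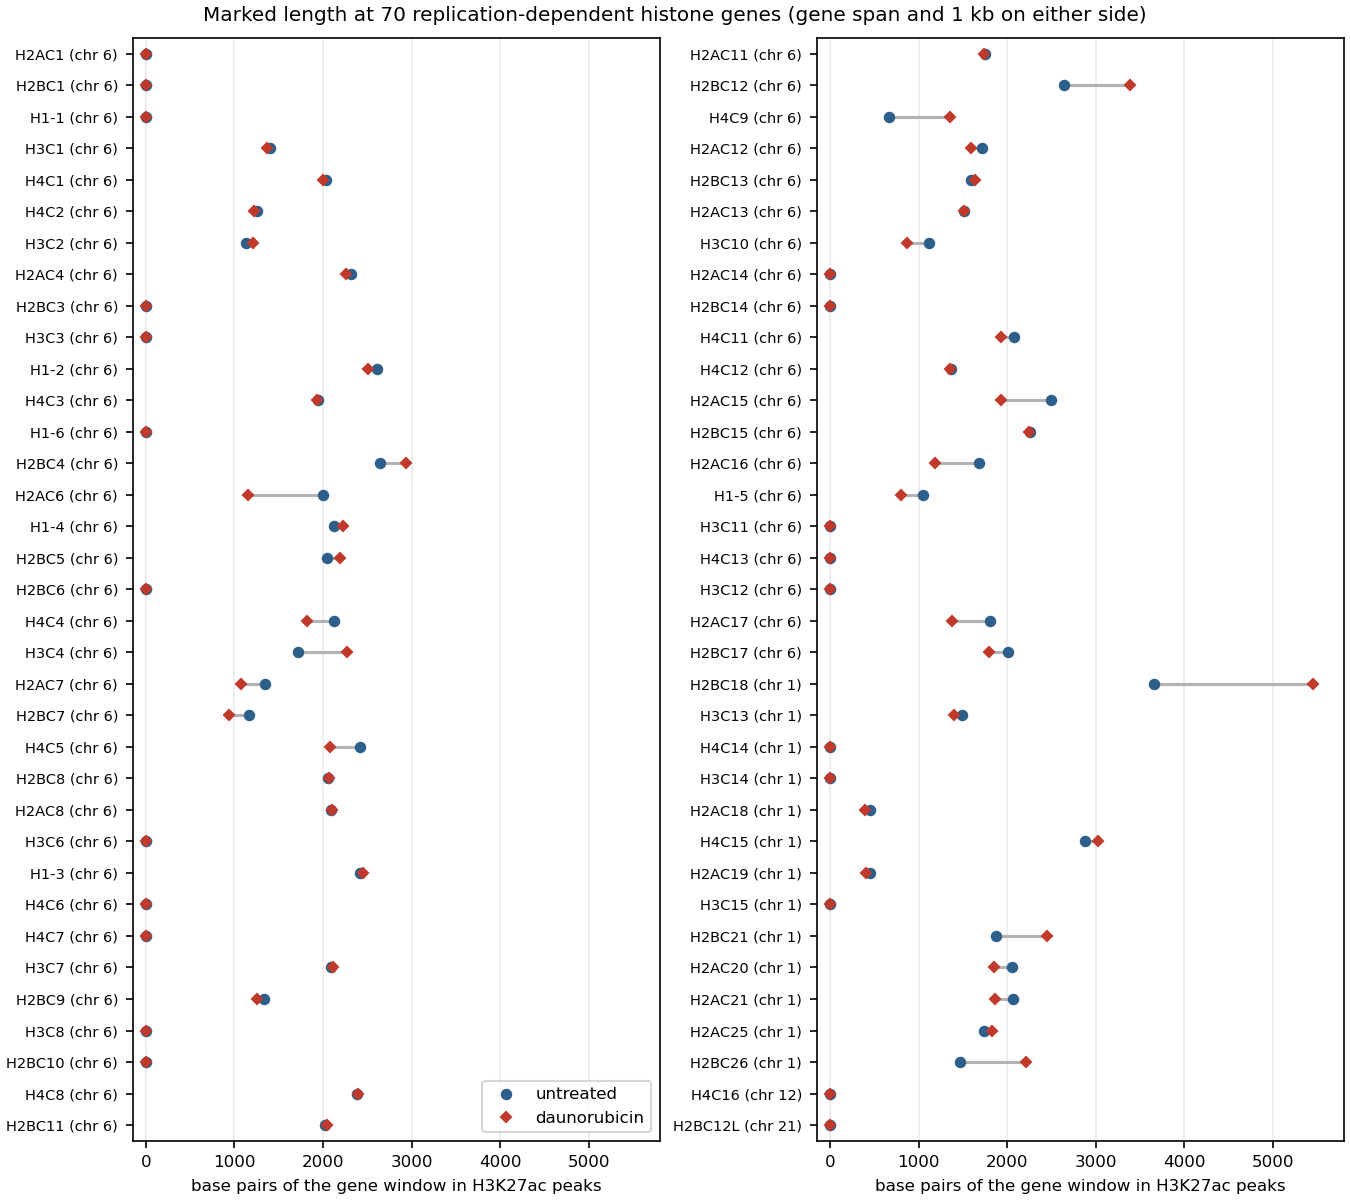
Base pairs of each histone gene window (gene span and 1 kb on either side) lying in H3K27ac peaks, on the horizontal axis, for the 70 genes in order along chromosomes 6, 1, 12 and 21. Circles are the untreated and diamonds the daunorubicin library, 1 library each. The 22 unmarked genes sit at 0 in both, and most other pairs of points lie close together.

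The unmarked genes included those known from the testis. H2AC1 and H2BC1, a divergent pair for testis histones, had their nearest peak 10721 bp and 11435 bp away with daunorubicin and 19093 bp and 19807 bp without it. H1-6, the testis linker histone, had peaks 2057 bp and 1970 bp away, and H1-1, a linker histone of few tissues, 2802 bp and 2771 bp. Both genes outside clusters were unmarked, with H4C16 31783 bp and 31749 bp from a peak and H2BC12L 46373 bp and 93297 bp. The remaining unmarked genes on chromosome 6 were H2BC3, H3C3, H2BC6, H3C6, H4C6, H4C7, H3C8, H2BC10, H2AC14, H2BC14, H3C11, H4C13 and H3C12. On chromosome 1 they were H4C14, H3C14 and H3C15. In all, 7 of 13 H3 genes were without a peak. The distance from unmarked genes to the nearest peak had a median of 3748 bp with daunorubicin and 5135 bp without it.

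Near-identical copies limit 8 of these calls. The 300-base promoters of H4C14 and H4C15 were 100% identical, those of H2AC18 and H2AC19 99.7%, those of H3C14 and H3C15 98.7% and those of H4C11 and H4C12 98.3%. The labels do not say how reads fitting both copies were treated, so values at these 8 genes are uncertain. Their windows were marked at H2AC18, H2AC19, H4C11, H4C12 and H4C15, and H4C15 had no peak within 1 kb of its own start in either library. Without the 8 genes, 43 of 62 were marked in both libraries and 19 in neither.

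Marked length at the histone genes differed little between the libraries. Their merged windows held 66915 bp of peaks in the treated and 65621 bp in the untreated library (ratio 1.02). The ratio over the whole lists was 1.59, but those also hold peaks away from genes, so the measures are unlike. Among the 48 marked genes, 19 (39.6%) had a longer marked stretch with daunorubicin and 29 (60.4%) a shorter one. The median difference, daunorubicin minus untreated, was −25 bp. Of all protein-coding genes marked in both, 73.3% were longer and 26.6% shorter, and the median difference was 303 bp. A length at least 1.5 times longer was found at 2 histone genes, H4C9 and H2BC26, against 28.6% of all genes. A length at least 1.5 times shorter was found at H2AC6 alone, against 3.29% of all. Peaks were more numerous with daunorubicin at 16 of the 48 (33.3%) and fewer at none, against 46.8% and 5.63% of all genes. Among 1201 other genes of at most 5 kb marked in both libraries, 203 (16.9%) had more peaks and 39 fewer. The histone share with more peaks thus lay below that of all genes and above that of these shorter genes. Of the same 1201 genes, 100 had a length at least 1.5 times longer and 80 at least 1.5 times shorter.

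Gene length moves with the contrast between histone genes and all genes. The median span was 494 bp for histone genes and 24093 bp for all protein-coding genes. Among 1201 other genes of at most 5 kb that were marked in both libraries, 49.8% were longer and 49.96% shorter. In windows of 1 kb on either side of a start, which have 1 length for every gene, 17 of 44 marked histone starts (38.6%) were longer, 26 shorter and 1 equal. Of 12032 marked protein-coding starts, 54.4% were longer and 43.8% shorter in these windows. With an extension of 2.5 kb, 27 histone genes were longer (49.1%, against 75.3% of all genes) and 28 shorter. With 5 kb the direction turned, with 34 longer (57.6%, against 76.5%), 25 shorter and a median of 80 bp, where all genes had 401 bp.

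**Figure D2:**
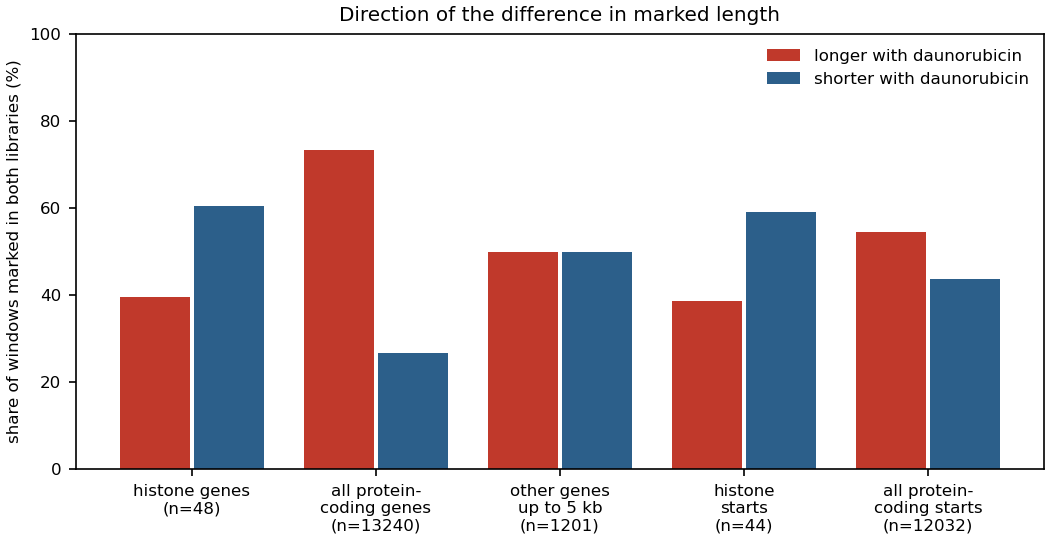
Share of windows marked in both libraries (vertical axis, percent) whose marked length was longer or shorter with daunorubicin, for gene windows (first 3 groups) and for windows of 1 kb around starts (last 2 groups). Bars start at 0 and n is the number of windows. Longer windows make up 73.3% for all protein-coding genes, 49.8% for other short genes and 39.6% for histone genes.

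Of the 6 H1 genes, which encode the linker histones, H1-2, H1-3 and H1-4 carried a broad single peak, and H1-1 and H1-6 had none. H1-2 had 1 peak in each library, 3482 bp wide with daunorubicin and 3504 bp without it. H1-3 had 1 of 3101 bp and 2612 bp, and H1-4 1 of 2222 bp and 2121 bp. The start base of all 3 lay inside the peak in both libraries. H1-5 differed from these, with 2 narrower peaks per library, its start base outside them, and 800 bp of its window marked with daunorubicin against 1050 bp without it.

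The H2A genes encode the core histone that pairs with H2B, and 13 of the 15 marked ones (86.7%) had a shorter length with daunorubicin. The share was 26.6% for all genes and 49.96% for other genes of at most 5 kb. Neighbouring genes count the same peaks more than once, as at H2AC20 and H2AC21 (−203 bp each). The widest loss of all histone genes was at H2AC6, with 1150 bp with daunorubicin and 1999 bp without it. One untreated peak of 1827 bp there was overlapped by 2 daunorubicin peaks. The difference at H2AC6 was −849 bp, −78 bp in the gene span alone and −347 bp with an extension of 5 kb. H2AC15 had 1935 bp against 2496 bp, H2AC16 1185 bp against 1679 bp, H2AC17 1381 bp against 1804 bp and H2AC7 1079 bp against 1344 bp. The 2 H2A genes with a longer length were H2AC8 (2101 bp against 2085 bp) and H2AC25 (1828 bp against 1736 bp), both chosen after their values were seen.

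Of the 13 marked H2B genes, 9 had a longer length with daunorubicin (69.2%) and 4 a shorter one. The longer share was 73.3% for all genes and 49.8% for other genes of at most 5 kb. Among the 9, H2BC4, H2BC5, H2BC12, H2BC18 and H2BC21 have spans of 2224 bp or more, against a median of 482 bp for all H2B genes. All of these but H2BC21 have spans over 5 kb. H2BC18, whose annotated span of 29682 bp overlaps the Fc receptor gene FCGR1A, had 5451 bp against 3661 bp and 7 peaks against 3. Of those peaks, 5 and 2 lay in FCGR1A or within 1 kb of it. H2BC12 had 3383 bp against 2639 bp, H2BC21 2452 bp against 1869 bp and H2BC4 2941 bp against 2646 bp. The annotated span of H2BC12 encloses the H4 gene H4C9. Of the 744 bp gained at H2BC12, 694 bp lay in the window of H4C9. Within 1 kb of its own start, H2BC12 had 1598 bp against 1591 bp. H2BC26, on chromosome 1 away from the large cluster, had 2211 bp against 1471 bp, a difference that was 0 bp in the gene span alone. The split between H2A and H2B depended on the window. In windows around starts 6 of 13 H2B starts were longer and 7 shorter, and 4 of 14 H2A starts were longer, 9 shorter and 1 equal.

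The H3 genes, like the variant gene H3-3A, encode forms of the histone whose acetylation was measured. Of the 6 marked H3 genes, 3 were longer and 3 shorter, with a median difference of −4.5 bp. H3C4, whose annotated span ends at the start of H2AC7, had 2270 bp against 1713 bp and 4 peaks against 3. The H4 genes, 10 of them marked, had 3 longer and 7 shorter. Shorter genes thus made up 50% for H3 and 70% for H4, against 26.6% of all genes and 49.96% of other genes of at most 5 kb. H4C9 had 1358 bp against 664 bp, a ratio of 2.05, and a second peak before its start (641 bp wide, score 23) was called only with daunorubicin. Keeping as many peaks in each list as the untreated library had, the difference at H4C9 was 53 bp. H4C5 had 2084 bp against 2412 bp, H4C4 1823 bp against 2119 bp and H4C15 3021 bp against 2880 bp. H4C8 had nearly equal lengths, 2393 bp and 2382 bp.

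Peaks stopped short of the transcript start at most histone genes. Among the 44 starts marked in both libraries, the start base lay in a peak at 9 (20.5%) with daunorubicin and 16 (36.4%) without it. At all 12032 marked protein-coding starts the shares were 82.2% and 85.7%. A start flanked within 1 kb by a peak on each side but itself uncovered was found at 29 histone starts (65.9%) with daunorubicin and 21 (47.7%) without it, against 7.61% and 2.89% of all. The H4 family differed most between the libraries, with such a gap at 6 of 7 starts with daunorubicin and 1 of 7 without it. For H2B it was 11 and 10 of 13, for H2A 10 and 8 of 14, for H3 2 and 2 of 6, and for H1 none of 4. A gap shared by a divergent H2A and H2B pair counts at both starts. This was so at 7 pairs in both libraries, and at H2AC15 and H2BC15 with daunorubicin. At H4C2 and H4C9 the start was uncovered in both libraries. Their gap was counted through an upstream peak called only with daunorubicin (scores 27 and 23). At H4C4, H4C5 and H4C11 the start base was covered only without daunorubicin, and H4C11 is among the genes with near-identical copies. The small numbers per family and the single libraries give these counts no replicate check.

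**Figure D3:**
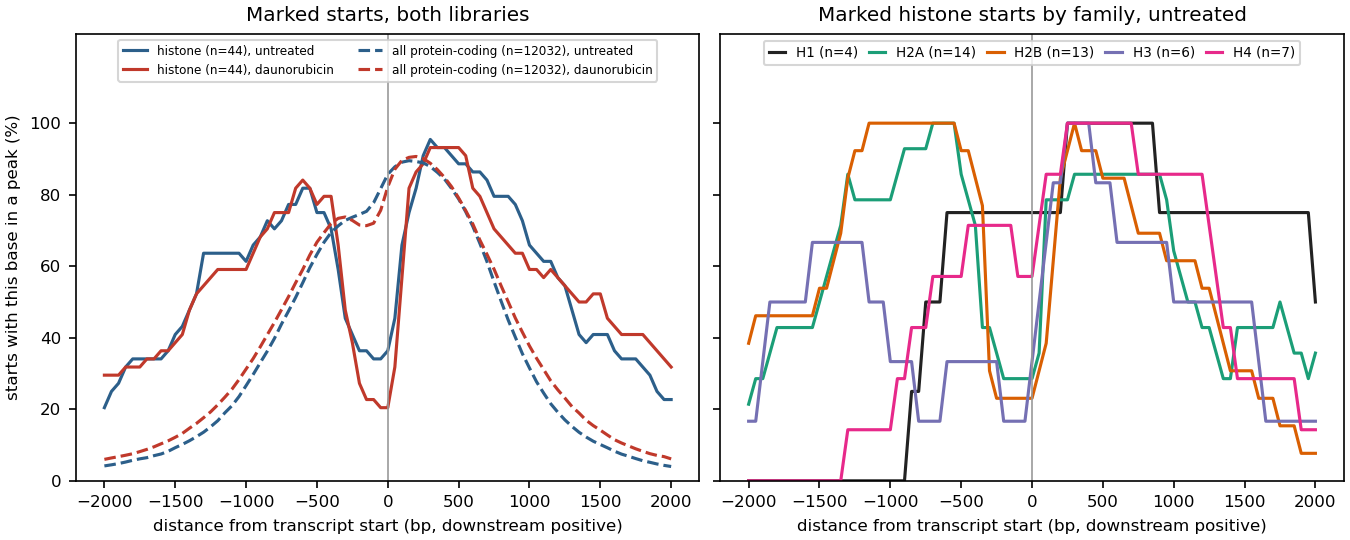
Share of marked transcript starts (vertical axis, percent) whose base at each distance from the start (horizontal axis, bp, downstream positive) lay in an H3K27ac peak. Left, the 44 histone starts against 12032 protein-coding starts in both libraries; right, histone families in the untreated library. The histone curves dip at the start, to 20.5% with daunorubicin and 36.4% without it, where the curves of all genes stand at 82.2% and 85.7%. The H1 curve has no such dip.

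Divergent pairs of H2A and H2B genes, which share one short promoter region, had this gap in most cases. Among genes with a start in the promoter table there were 11 such pairs, with 193 to 247 bases between their starts, and 9 were marked. H2AC12, beside H2BC12, has no entry there and was not counted. In 7 of these pairs no base between the starts lay in a peak in either library. The gap between the flanking peaks was 408 to 664 bp with daunorubicin (median 473 bp) and 432 to 572 bp without it (median 455 bp). It was wider with daunorubicin at 4 pairs and narrower at 3. At H2BC8 and H2AC8, whose sequence is printed above, the gap ran from 26216539 to 26216954 with daunorubicin (416 bp) and from 26216511 to 26216942 without it (432 bp). The gap was widest at H2AC7 and H2BC7, with 664 bp and 572 bp. At H2AC15 and H2BC15 a gap of 274 bp was seen with daunorubicin, where 1 untreated peak of 3305 bp covered both starts. H2AC25 and H2BC26 were the exception, with 1 peak across both starts in each library.

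**Figure D4:**
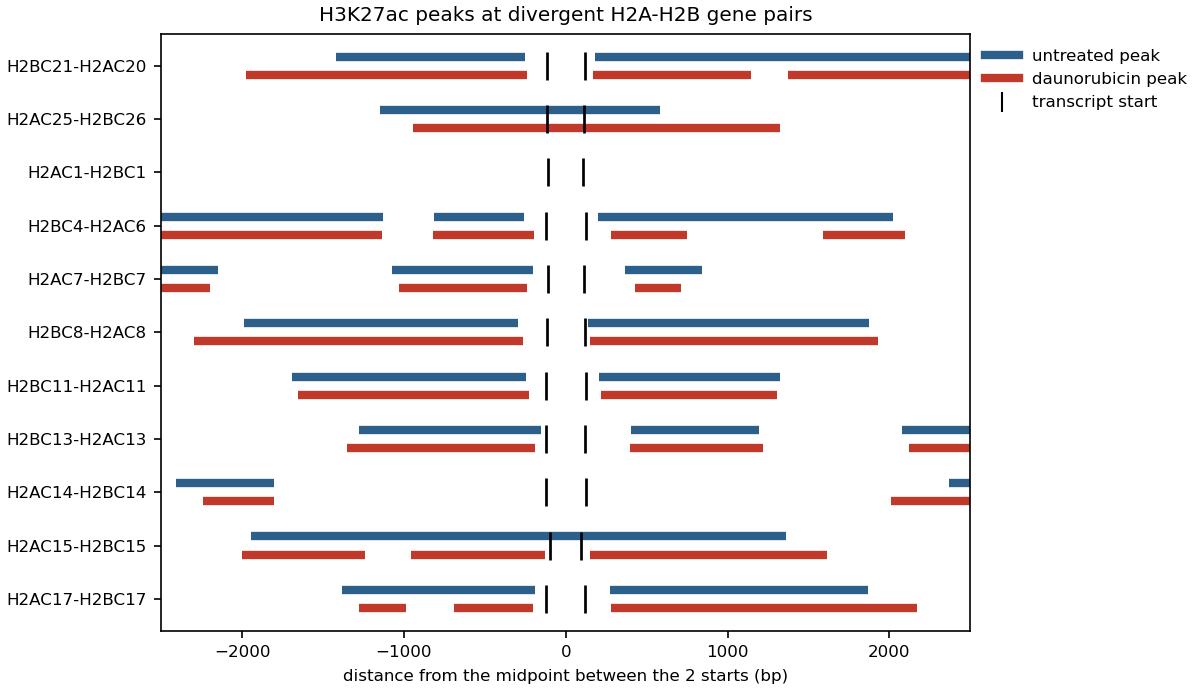
Peaks of the untreated (upper, blue) and daunorubicin (lower, red) libraries at 11 divergent H2A and H2B gene pairs, by distance from the midpoint between the starts (bp). Upright ticks mark the starts. At 7 of the 9 marked pairs both libraries leave the stretch between the starts free of peaks, and at H2AC15 and H2BC15 only the daunorubicin library does. Of the unmarked pairs, H2AC1 with H2BC1 shows no peak. H2AC14 with H2BC14 shows only peaks that lie outside the windows of both genes.

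Every untreated peak at the histone genes had a daunorubicin partner. The untreated library had 48 peaks there, of which 100% (95% Wilson interval 92.6 to 100) overlapped a daunorubicin peak, whereas 10.7% of all untreated peaks did not. Width moves with this share: of all untreated peaks, 17.3% under 1 kb and 0.497% from 1 kb to under 4 kb had no partner, and 35 of the 48 at histone genes were of the wider class. The daunorubicin library had 66 peaks there, of which 8 (12.1%) had no untreated partner, against 46.3% of all its peaks. Of the 8, 4 lay in the window of H2BC18, and the rest at H4C2, H2BC4, H3C4 and H2BC12 with H4C9. They were 352 to 686 bp wide. Of them, 6 scored from 21 to 34, below the median of 41 of the daunorubicin list, and 2 at H2BC18 scored 59 and 63. With the stricter score 5 daunorubicin peaks had no partner, not all of them among these 8, of which only 2 reach that score of 43. With equal numbers of peaks 3 had none, and with a reciprocal overlap of 50% 26 had none.

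Several untreated peaks met more than one daunorubicin peak. This was so for 9 of the 48 untreated peaks (18.8%), against 4.79% of all shared untreated peaks. It was so for 6 of 44 with the stricter score and for 6 of 48 with equal numbers of peaks. The share over all peaks was not taken under these settings. The reverse was found for 1 of 58 shared daunorubicin peaks (1.72%), at H4C5, against 3.39% of all. In the whole untreated list this share rose with width, from 0.689% of peaks under 1 kb. Among untreated peaks from 1 kb to under 2 kb, 4 of 22 at histone genes (18.2%) and 7.30% of all met more than one. From 2 kb to under 4 kb, these were 5 of 13 (38.5%) and 25.7%. Examples were H2AC15 and H2BC15, where 1 untreated peak met 3 daunorubicin peaks, H4C4 (2615 bp wide), H4C5 (2781 bp) and H4C11 (2073 bp), the last chosen after its values were seen. The mean width of peaks at histone genes was 1163 bp in the treated and 1508 bp in the untreated library, while the ratio of their numbers was 1.38.

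Scores of the peaks at histone genes were above the middle of each list. The median peak stood at percentile 78.4 of the daunorubicin list and 74.2 of the untreated list. Taking the highest-scoring peak of each marked gene, the medians were 88.3 and 81.0, near the 88.7 and 83.8 of all protein-coding genes marked in both libraries. In the daunorubicin list the family medians ran from 82.2 for H3 to 96.9 for H1, and in the untreated list from 78.0 for H3 to 85.5 for H4. The lowest was H4C9, at 41.9 in the untreated list. Genes of 1 family overlapped those of the others in both lists.

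**Figure D5:**
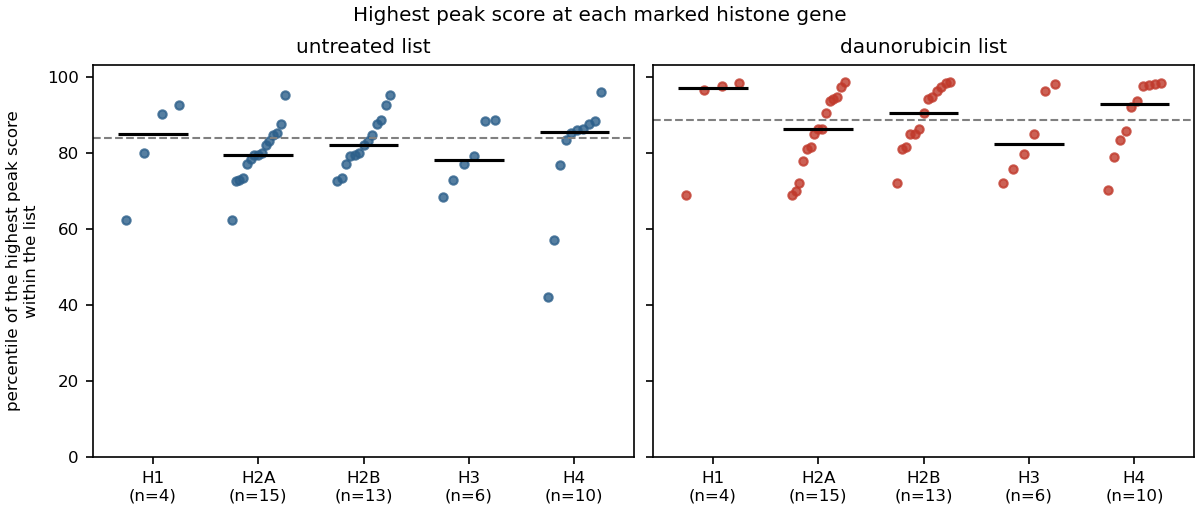
Percentile of the highest peak score at each marked histone gene within its own list (vertical axis), by family, in the untreated (left) and daunorubicin (right) list. Bars are family medians and the dashed line is the median of all protein-coding genes marked in both libraries. The families overlap, and H4C9 is the lowest point, at 41.9 in the untreated list.

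The genes formed 5 clusters. The largest, on chromosome 6 from 25726063 to 26285534, held 34 genes, 22 of them marked. With 1 kb on either side, 9.65% of it lay in peaks with daunorubicin and 8.24% without it. Its highest score at a histone gene was 327 in the untreated list, at H4C8, and 278 in the daunorubicin list, at H1-4 and H2BC5. A cluster from 27132316 to 27147562 held 5 genes, all marked, with its top peak at H2BC12 and H2AC12 in both lists (scores 247 with daunorubicin and 181 without it). A cluster from 27807479 to 27893891 held 16 genes, 11 of them marked, and 10 of these 11 (90.9%) were shorter with daunorubicin. The share was 26.6% for all genes and 49.96% for other genes of at most 5 kb. Neighbours in this cluster share windows and peaks, and some differences were small, such as −10 bp at H2AC13 and −13 bp at H4C12. Its top peak lay at H2AC15 and H2BC15 in both lists.

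On chromosome 1, the cluster from 149782689 to 149887965 held 11 genes, 8 of them marked, with its top peak at H2AC18 and H4C15 in the daunorubicin list (score 189) and at H2AC19 and H4C15 in the untreated list (199). The pair H2AC25 and H2BC26, from 228457364 to 228458558, shared 1 peak per library, with scores of 194 and 314. Covered length had a ratio of daunorubicin to untreated of 1.17 in the largest cluster, 1.11 and 0.96 in the other chromosome 6 clusters, and 1.21 and 1.31 on chromosome 1.

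Between the histone genes, the comparison of the libraries depended on how clusters and peaks were chosen. There were 23 daunorubicin and 10 untreated peaks inside clusters but outside histone gene windows, a ratio of 2.3 against 1.69 for the whole lists. The ratio fell below 1.69 with other cluster gaps, to 1.57 at 200 kb (11 against 7 peaks) and 1.3 at 1 Mb (146 against 112). With equal numbers of peaks in the lists it was 1.2 (12 against 10). Of the 23, 14 (60.9%) had no untreated partner, with a Wilson interval for the shared part of 22.2 to 59.2%, which includes the 53.7% of the whole list. All 10 untreated peaks had a partner. Of the 14 unshared peaks, 9 lay between H2BC1 and H1-1. With gaps up to 200 kb, 5 of 11 had no partner. With gaps up to 1 Mb, which join the chromosome 6 clusters over other genes, 48 of 146 had no partner.

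Genes that serve histone gene expression were marked throughout. All 26 genes of histone transcription and mRNA 3′ end processing had a peak in both libraries, against 66.0% of all genes. Of the 26, 18 had a longer length with daunorubicin (69.2%, against 73.3% of all genes) and 8 a shorter one. The largest differences were at POU2F1, which binds the octamer (15547 bp against 10400 bp), ERI1, an exonuclease that trims histone mRNA ends (9450 bp against 4696 bp), TENT4B (6515 bp against 3369 bp) and CASP8AP2, which encodes the histone locus body protein FLASH (4392 bp against 2639 bp). NPAT had 3745 bp against 3855 bp, SLBP 1992 bp against 1856 bp and HINFP 1553 bp against 1618 bp, these 3 chosen after their values were seen.

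All 20 genes of histone supply and deposition were marked in both libraries, against 66.0% of all genes. Of the 20, 12 were longer with daunorubicin (60%, against 73.3% of all genes) and 8 shorter. With equal numbers of peaks 10 were longer and 10 shorter. The largest differences were at ATRX, a remodeller that works with the H3.3 chaperone DAXX (6240 bp against 4036 bp), NAP1L1, a chaperone of H2A and H2B (2948 bp against 1482 bp), SUPT16H, a subunit of FACT (2823 bp against 1873 bp), and HAT1, which acetylates new H4 (2772 bp against 1903 bp). Of 19 variant and replication-independent histone genes, 10 were marked in both libraries, 8 in neither, and H1-8, the oocyte linker histone, only without daunorubicin (767 bp). The share in neither was 42.1%, against 26.9% of all genes. Among the 10, 8 were longer and 2 shorter. The longer share was 80%, against 73.3% of all genes and 49.8% of other genes of at most 5 kb. The sets are unlike in length, since MACROH2A1, H2AZ2, H2BN1, H3-3A and CENPA have spans over 5 kb. With lists of equal size these became 6 and 4. MACROH2A1 had 2798 bp against 3767 bp, H1-10 2264 bp against 1675 bp and H3-3A, which encodes H3.3, 2975 bp against 2622 bp. H2AZ1, chosen after its value was seen, had 1305 bp against 1573 bp.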

How the data were processed

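Chromatin from K562 cells was profiled by ChIP-seq for H3K27ac in 1 daunorubicin and 1 untreated library, each with 1 input library. The submitters' processing notes list MACS2 2.1.1, Bowtie2 2.3.4.3 and deepTools 3.2.1, with the builds hg38 and hg19. How they were set, and how the inputs served, was not given in these sources. Each library has its own list of peaks, each with a score that the authors deposited without its formula. Scores were read only within a list. Sequence names in the lists are those of hg38. Depth is unknown, because the lists hold no read counts.

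Gene spans came from a RefSeq table of GRCh38.p14, and starts, strands and promoter sequences from the RefSeq promoter table of the same build. Coordinates are counted from 1. A gene was marked if a peak overlapped its span or the 1 kb on either side by at least 1 bp. Marked length is the number of base pairs of that window in peaks. Starts of a gene within 100 bp of each other counted once, as did genes sharing a start. Clusters were runs of members at most 500 kb apart. No test was run and no p-value is given, since each condition has a single library. Intervals of shares are 95% Wilson intervals and cover only counting error. The members and lists were chosen with earlier results of these data known. Named genes were all H1 members, members outside clusters or unmarked, the 8 largest gains and losses, those nearest the highest-scoring peaks, and for each list the 4 largest differences and those marked in 1 library. Others are said to be chosen after their values were seen.

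Alternatives were a stricter score of at least 43 (the untreated median), the 38626 highest-scoring peaks of each list, removal of peaks on input peaks, extensions of 0, 2.5 and 5 kb, members inside clusters only, a reciprocal overlap of 50%, and cluster gaps of 200 kb and 1 Mb. Windows of 1 kb around starts, and leaving out members with near-identical promoters, were chosen after seeing the data. Alternatives run on start bases in peaks, and on untreated peaks meeting more than 1 daunorubicin peak, were not planned in advance. Python 3.11.15, pandas 2.3.3 and Biopython 1.88 were used. Overlap functions were tested on simulated data against bedtools 2.31.1 and gave equal counts.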

Additional observations from a re-analysis of the deposited data

How the results depend on the processing

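With 1 library per condition and no depth, no setting measures variation between cultures, and peak numbers can move with depth. No paired analysis was possible because each group had a single library. Of the 70 genes, none was marked only without daunorubicin under any setting run. H4C9 was the 1 gene marked only with daunorubicin under the stricter score, H4C6 the 1 with an extension of 2.5 kb and H3C8 the 1 with 5 kb. Genes marked in neither library numbered 14 and 10 with extensions of 2.5 and 5 kb. The median difference in marked length came to −53 bp with the stricter score, to −57 bp with equal numbers of peaks, and to 0 bp with no extension and 80 bp with 5 kb, where 34 genes were longer. Daunorubicin peaks at histone genes without a partner numbered 5 under the stricter score, 3 with equal numbers and 26 with a reciprocal overlap of 50%. For untreated peaks there the numbers were 3, 2 and 8. Between genes, daunorubicin peaks without a partner numbered 4 under the stricter score, 4 with equal numbers, 5 with cluster gaps of 200 kb and 48 with 1 Mb. Untreated ones numbered 1 with equal numbers, 2 with the reciprocal overlap and 2 with 1 Mb. Variant histone genes that were shorter numbered 4 with equal numbers. H4C9 had a difference of 53 bp with equal numbers and 32 bp with no extension. H2BC26 had 0 bp with no extension, and H2AC6 −78 bp with none and −347 bp with 5 kb. The cause of these changes was not tested. Start bases of histone genes in a peak numbered 9 with daunorubicin and 15 or 16 without it in the 4 alternatives run on them.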

Other observations

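Between its histone genes, the largest chromosome 6 cluster also holds TRIM38, a ubiquitin ligase gene of innate immunity, and, in another stretch, HFE, the gene mutated in hereditary haemochromatosis. The peak of HFE (26087147 to 26088558 with daunorubicin, score 318) had a higher score than any peak at a histone gene in that list, and the untreated peak there (26087296 to 26088291) had a score of 221. TRIM38 had 4 daunorubicin peaks and 3 untreated ones outside histone gene windows, and the peak called only with daunorubicin had a score of 34. Both were picked with their values already seen.

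Of the histone pseudogenes in the clusters, H2BC16P lay within 1 kb of a peak called only with daunorubicin and outside the histone gene windows (27862452 to 27863129, score 18).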
